A study of Rattus norvegicus with 6 samples.

Results

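The CDK inhibitor genes described here are Cdkn1a, Cdkn1b, Cdkn1c, Cdkn2b, Cdkn2c, Cdkn2d and Cdkn3, taken by gene symbol from the authors' gene table: 7 of the 17172 genes and loci in the files. RNA was sequenced from c-kit+ bone marrow cells of ACI rats aged 6 to 8 weeks. One group of 3 rats received phenylhydrazine (PHZ, a compound that lyses red cells) at 100 mg/kg into the peritoneum and the other 3 received phosphate-buffered saline (PBS), and the marrow of the hind legs was taken 36 h later. A biotinylated antibody against c-kit (the stem cell factor receptor of blood progenitors) and streptavidin particles were used for enrichment, so each library is a mixture of progenitors and the cells that came with them. By label, 2 rats per group were female and 1 was male, and the labels name no allele or other agent.

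Cyclin-dependent kinases (CDKs) drive the cell cycle, and CDK inhibitor proteins hold them back. The CIP/KIP family (p21 from Cdkn1a, p27 from Cdkn1b and p57 from Cdkn1c) binds complexes of cyclins with CDKs, whereas the INK4 family (p15 from Cdkn2b, p18 from Cdkn2c and p19 from Cdkn2d) binds CDK4 and CDK6 alone and keeps them from D-type cyclins. Cdkn3 belongs to neither family: it encodes a phosphatase that removes the activating phosphate from CDK2 and is transcribed mainly in dividing cells. In bone marrow, p57 and p18 are known for their roles in stem cell quiescence and self-renewal, and p27 and p18 for cell cycle exit of maturing erythroid cells.

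The libraries held 13196249 to 19492793 expected counts, and 13547 genes passed the filter on low counts, all 7 CDK inhibitor genes among them. Kit, the gene of the receptor used for enrichment, stood at 33.9 to 71.6 CPM (counts relative to library size, scaled by TMM) in the 6 libraries, with overlapping groups. Transcripts of the Y-linked genes Ddx3y and Eif2s3y went against the sex label in 3 libraries: PBS replicate 1 (labelled female) held 3297 counts of them, PHZ replicate 3 (labelled female) 2136 and PBS replicate 2 (labelled male) 0. Differences between groups were tested with edgeR's quasi-likelihood test and Benjamini-Hochberg adjustment over all tested genes, and a gene is said to have changed where its adjusted p was under 0.05. By this rule 1783 genes changed, 68.3% of them upward (55.1% of those that DESeq2 called). Without those 3 libraries no gene passed in edgeR and 1504 genes had an unadjusted p under 0.05, with 1 PBS and 2 PHZ libraries left.

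The upstream sequences of the 3 members with the highest estimates in PHZ rats are shown for comparison, since only Cdkn3 among them changed. Each is the run of 250 bases before a transcription start that RefSeq lists on rat assembly GRCr8 (for Cdkn3 the upstream one of 2 listed starts), which is not the build named for the authors' processing. Capitals mark matches to CCAAT or to TTTGAA, elements known from promoters of genes transcribed late in the cell cycle. Both strands were searched, and a match on the other strand appears as its reverse complement.
Cdkn3 (chr15:22502136-22502385, plus strand): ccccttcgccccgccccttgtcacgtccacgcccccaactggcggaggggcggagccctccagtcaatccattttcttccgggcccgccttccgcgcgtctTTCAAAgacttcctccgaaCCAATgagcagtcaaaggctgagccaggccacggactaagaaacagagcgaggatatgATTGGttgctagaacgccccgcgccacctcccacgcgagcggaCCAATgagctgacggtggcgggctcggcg
Cdkn1b (chr4:169491254-169491503, plus strand): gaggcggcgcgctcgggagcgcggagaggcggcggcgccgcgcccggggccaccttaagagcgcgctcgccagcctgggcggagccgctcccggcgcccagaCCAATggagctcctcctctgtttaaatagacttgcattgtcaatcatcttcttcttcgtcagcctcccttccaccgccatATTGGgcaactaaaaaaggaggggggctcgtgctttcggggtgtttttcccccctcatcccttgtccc
Cdkn2c (chr5:129644892-129645141, minus strand): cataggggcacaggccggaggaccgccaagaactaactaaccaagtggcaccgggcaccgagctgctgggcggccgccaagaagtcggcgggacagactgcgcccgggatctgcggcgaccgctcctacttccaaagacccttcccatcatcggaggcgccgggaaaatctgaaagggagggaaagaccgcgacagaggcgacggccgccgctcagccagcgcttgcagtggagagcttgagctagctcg

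The Cdkn3 window holds 3 CCAAT matches, which begin 130, 72 and 29 bases before the start, and 1 TTTGAA match at 149. From the other listed Cdkn3 start these distances are 142, 84 and 41 bases, and 161 for TTTGAA. The Cdkn1b window holds 2 CCAAT matches, at 148 and 68 bases, and the Cdkn2c window holds no match to either motif. The Cdkn2b window, not shown, also holds 1 TTTGAA match, at 216 bases, so this motif is not particular to the member that rose. Among 33469 RefSeq promoter windows of this length, 34.0% hold CCAAT, 2.52% hold it at least 3 times and 16.2% hold TTTGAA. A match describes letters in the window and is not a measured site. RefSeq windows were found for 6 of the 7 members, and Cdkn1c is the member without one.

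Of the 7 CDK inhibitor genes, 1 rose in PHZ rats (Cdkn3), none fell and 6 did not pass the test. Among all tested genes 13.2% changed, 8.99% upward and 4.17% downward, so 1 of 7 is near the background. The estimates were higher in PHZ rats for 5 members and lower for 2, and 3 members had an unadjusted p under 0.05, Cdkn3 and Cdkn2c higher and Cdkn1c lower. DESeq2 and limma likewise called 1 member higher and 0 lower. Values of the groups did not overlap for Cdkn3 and Cdkn1c, 2 of 7 members, against 41.7% of all tested genes. The median log2 fold change of the members was 0.13, beside -0.04 over all tested genes. In bulk libraries, fewer cells of a type and less RNA per cell cannot be told apart.

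**Figure D1:**
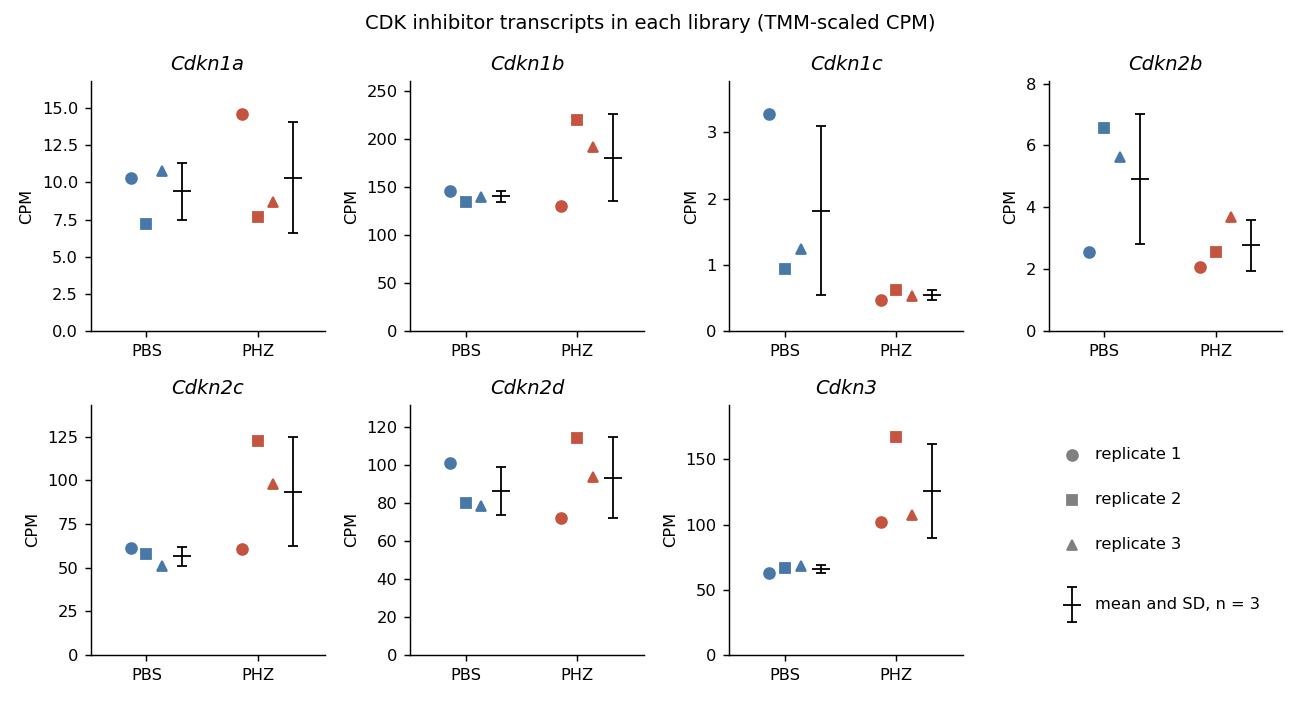
Level of each CDK inhibitor transcript in TMM-scaled CPM (y axes from 0, one scale per gene) in the 3 PBS and 3 PHZ libraries, with marker shape for the replicate number and a bar for mean and SD. The 3 PHZ libraries lie above all PBS libraries for Cdkn3 and below them for Cdkn1c, and PHZ replicate 1 is the lowest PHZ library for Cdkn1b, Cdkn2c and Cdkn2d.

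Among the CIP/KIP genes none passed the test. Cdkn1a, which encodes the stress-induced inhibitor p21, stood at 10.3, 7.22 and 10.7 CPM in PBS replicates 1 to 3 and at 14.6, 7.68 and 8.66 CPM in PHZ replicates 1 to 3. The highest value was that of PHZ replicate 1, and the other PHZ libraries lay within the PBS range. The log2 fold change was 0.13 ± 0.31 (SE, n = 3 per group; edgeR adjusted p = 0.784), with a 95% interval from -0.60 to 0.87. Without PHZ replicate 1 the estimate was -0.20, and without PBS replicate 2 it was -0.02, so no direction can be given for Cdkn1a.

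Cdkn1b, the gene of p27, was the most abundant CIP/KIP transcript. Its values were 146, 135 and 140 CPM in PBS rats and 131, 220 and 192 CPM in PHZ rats. PHZ replicates 2 and 3 lay above every PBS library and PHZ replicate 1 below every one. The log2 fold change was 0.37 ± 0.20 (SE, n = 3 per group; edgeR adjusted p = 0.245), and the 95% interval ran from -0.12 to 0.85. Without PHZ replicate 1 it was 0.56 ± 0.13, with an edgeR adjusted p that met the threshold only at its margin (0.0499999).

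Cdkn1c, the imprinted gene of p57, was the least abundant member, with 89 counts summed over the PBS libraries and 27 over the PHZ libraries. It stood at 3.28, 0.932 and 1.24 CPM in PBS rats and at 0.474, 0.624 and 0.536 CPM in PHZ rats. All PHZ values lay below all PBS values, and PBS replicate 1 was the highest library by far. The log2 fold change was -1.73 ± 0.59 (SE, n = 3 per group; unadjusted p = 0.0225, edgeR adjusted p = 0.0916), which did not pass the test. Without PBS replicate 1 the estimate was -0.99 ± 0.48 (edgeR adjusted p = 0.208).

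PBS replicate 1 also held more transcript of stromal and endothelial marker genes. The summed level of 12 such genes, per library total, was 1362 CPM there and 241 to 305 CPM in the other 5 libraries, with no marker at 0 in every library. Cxcl12, a chemokine gene of marrow stroma, stood at 355 CPM in PBS replicate 1 and at 1.28 to 9.24 CPM elsewhere. Of the 9 markers tested, 2 fell in PHZ rats (Pecam1 and Kdr, both endothelial) and none rose, against 4.17% of all tested genes downward. The number that passed was 1 without PHZ replicate 1 and 0 without PHZ replicate 2 or 3 or PBS replicate 2 or 3. Their part in the Cdkn1c values was not tested.

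Of 12 other imprinted genes listed, 7 were tested, 1 with a higher and 6 with lower estimates (median log2 fold change -1.01), and 1 passed in each direction. Among all tested genes 8.99% rose and 4.17% fell. Grb10, an adaptor of growth factor receptors, rose by 0.91 ± 0.18 on the log2 scale (edgeR adjusted p = 0.0294). Plagl1, a zinc finger gene of the same imprinted network, fell from 0.932 to 1.51 CPM in PBS rats to 0 to 0.0948 CPM in PHZ rats (edgeR adjusted p = 0.0224). The 0 in PHZ replicate 3 allows a level of up to 0.227 CPM, as a limit of counting error only. The number that passed was 1 without PHZ replicate 1 or 3 and 0 without PHZ replicate 2, PBS replicate 2 or PBS replicate 3. Among genes of stem cells and quiescence 7 of 14 were tested, and 1 fell, Procr, with a log2 fold change of -2.11 ± 0.39 (edgeR adjusted p = 0.0243). Procr encodes the endothelial protein C receptor and is not particular to stem cells. Estimates were lower for 6 of the 7, and 3 were lower at an unadjusted p under 0.05, the number that DESeq2 called. In edgeR 2 passed without PHZ replicate 1, and none without PHZ replicate 2 or 3 or PBS replicate 2 or 3.

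No INK4 gene passed the test either. Cdkn2b, the TGF-beta-responsive gene of p15, stood at 2.55, 6.58 and 5.63 CPM in PBS rats and at 2.09, 2.56 and 3.68 CPM in PHZ rats. PBS replicate 1 lay within the PHZ range, and the other PBS libraries above it. The log2 fold change was -0.83 ± 0.44 (SE, n = 3 per group; edgeR adjusted p = 0.226; 95% interval -1.87 to 0.21). Summed neutrophil markers, per library total, were likewise lowest among the PBS libraries in replicate 1, at 9903 CPM against 17441 and 24177 CPM, and stood at 5195 to 9145 CPM in PHZ rats. Of the 9 neutrophil markers tested none passed in edgeR (2 were lower at an unadjusted p under 0.05, and DESeq2 called 2 and limma 1). Without PBS replicate 1 edgeR called 5 of them. Their part in the Cdkn2b values was not tested.

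Cdkn2c, the gene of p18, had the second highest estimate of the 7 members. Its values were 61.1, 57.6 and 50.7 CPM in PBS rats and 60.5, 122 and 97.8 CPM in PHZ rats. PHZ replicates 2 and 3 exceeded every PBS library, while PHZ replicate 1 lay within the PBS range. The log2 fold change was 0.73 ± 0.26 (SE, n = 3 per group; unadjusted p = 0.0265, edgeR adjusted p = 0.1002), with a 95% interval from 0.11 to 1.34. Without PHZ replicate 1 it was 0.97 ± 0.16 and passed the test (edgeR adjusted p = 0.0264).

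Cdkn2d, the gene of p19, showed the smallest estimate. It stood at 101, 79.8 and 78.3 CPM in PBS rats and at 72.0, 115 and 93.6 CPM in PHZ rats, with PHZ replicate 1 the lowest of all 6 libraries. The log2 fold change was 0.11 ± 0.20 (SE, n = 3 per group; edgeR adjusted p = 0.726), and the 95% interval from -0.37 to 0.59 spans both directions. Without PHZ replicate 2 the estimate was -0.06. Cdkn2a, the remaining INK4 gene and no member of the set, had 1 to 6 counts per library and did not pass the filter on low counts.

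PHZ replicate 1, the lowest PHZ library for Cdkn1b, Cdkn2c and Cdkn2d, was also the lowest PHZ library for erythroid markers. Their summed level, per library total and mostly globin, was 88903 CPM in that library, 156756 and 212383 CPM in the other PHZ libraries and 97310 to 194370 CPM in PBS rats. The PBS libraries did not share this likeness: the sum was highest in PBS replicate 3, the lowest PBS library for Cdkn2c and Cdkn2d. It was 115337 CPM in PBS replicate 1, the highest PBS library for all 3 genes. Epor, the erythropoietin receptor gene, stood at 75.3 CPM in PHZ replicate 1 and at 178 and 144 CPM in PHZ replicates 2 and 3, against 59.0 to 75.3 CPM in PBS rats. Klf1 and Gata1 were also lowest among the PHZ libraries in PHZ replicate 1, but stood above every PBS library there. Klf1 was at 367 CPM against 174 to 203 CPM in PBS rats, and Gata1 at 178 CPM against 89.9 to 110 CPM. Epor, Klf1 and Gata1, unlike the summed level, were each highest among the PBS libraries in PBS replicate 1. Of 11 erythroid markers tested the groups did not overlap for 7, against 41.7% of all tested genes. In the test 5 rose and none fell, against 8.99% of all tested genes upward, with Tfrc, Klf1 and Ank1 among those 5. The number that passed was 2 and 1 without PHZ replicates 2 and 3, and 0 without PBS replicate 2 or 3. The part of the erythroid markers in the values of the 3 inhibitor genes was not tested. PHZ replicate 1 was also the PHZ library without counts of Ddx3y and Eif2s3y (0, against 2486 and 2136 in replicates 2 and 3). PBS replicate 1, the PBS library with such counts (3297), was the highest PBS library for the 3 genes. With the Y-linked term the log2 fold changes were 0.21 for Cdkn1b, 0.50 for Cdkn2c and -0.05 for Cdkn2d. These counts were uneven between the groups, and their part was not tested.

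Cdkn3 was the member that rose. It stood at 63.0, 66.7 and 68.5 CPM in PBS rats and at 102, 167 and 108 CPM in PHZ rats. Every PHZ library exceeded every PBS library, and PHZ replicate 2 was the highest. The mean went from 66.1 ± 2.84 to 126 ± 35.9 CPM (SD, n = 3 per group), a 1.90-fold rise with a log2 fold change of 0.93 ± 0.21 (SE; edgeR adjusted p = 0.0373) and a 95% interval from 0.43 to 1.42.

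The direction of Cdkn3 was higher in PHZ rats under all 17 alternatives, but the call was not held by all of them. The edgeR adjusted p was 0.0664, 0.128 and 0.135 without PBS replicates 1, 2 and 3, and 0.0514 and 0.0680 without PHZ replicates 2 and 3. It was 0.0321 without PHZ replicate 1, and 0.487 without the 3 libraries whose Y-linked transcripts went against their label, where the estimate was 0.97 ± 0.45.

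**Figure D2:**
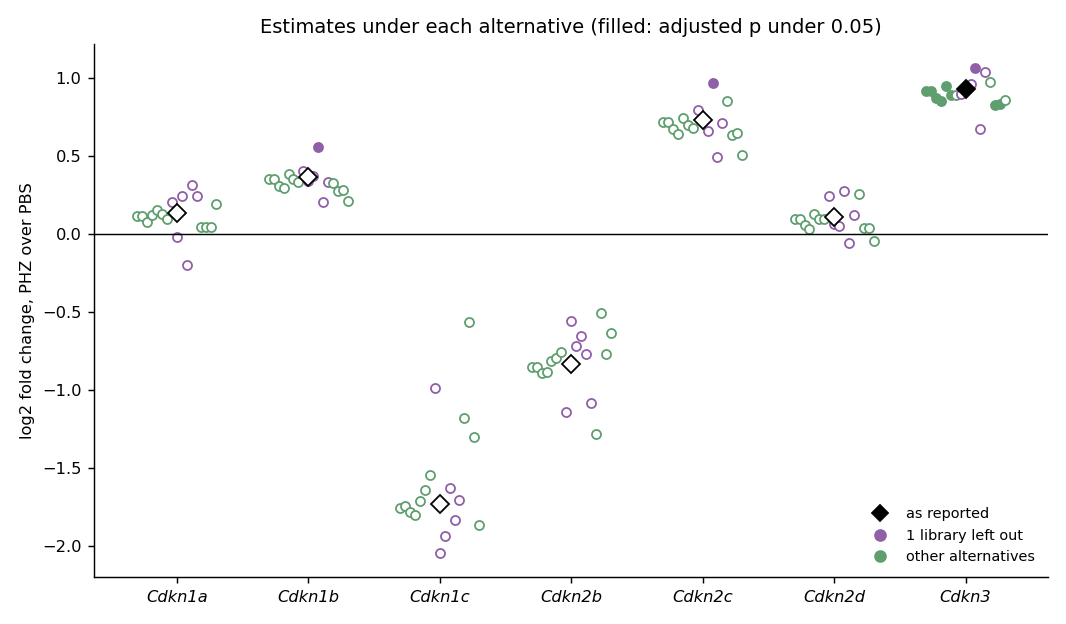
Log2 fold change of each member (PHZ over PBS, y axis) as reported (black diamond) and under 17 alternatives (circles, purple where 1 library was left out), filled where the adjusted p was under 0.05. Cdkn3 lies between 0.67 and 1.06 throughout, whereas Cdkn1a and Cdkn2d have values on both sides of 0.

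Genes of G2 and mitosis, the phases in which Cdkn3 is known to be most transcribed, were higher in the same rats. Of 21 tested genes 14 rose and none fell, against 8.99% of all tested genes upward, with a median log2 fold change of 0.78 and estimates from 0.41 to 1.35. Ccnb1, the mitotic cyclin B1, rose by 1.35 ± 0.16, Cdc20, an activator of the anaphase-promoting complex, by 0.97 ± 0.16, and Hmmr, a spindle assembly factor, by 0.91 ± 0.11 on the log2 scale (edgeR adjusted p = 0.0154, 0.0218 and 0.0154). The Cdkn3 estimate of 0.93 was exceeded by 5 of the 21 genes and lay above the other 16. Without PBS replicate 1 the number that rose was 7, without PHZ replicates 2 and 3 it was 3 and 2, and without PBS replicate 2 or 3 it was 0, settings in which no gene of the whole table passed.

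**Figure D3:**
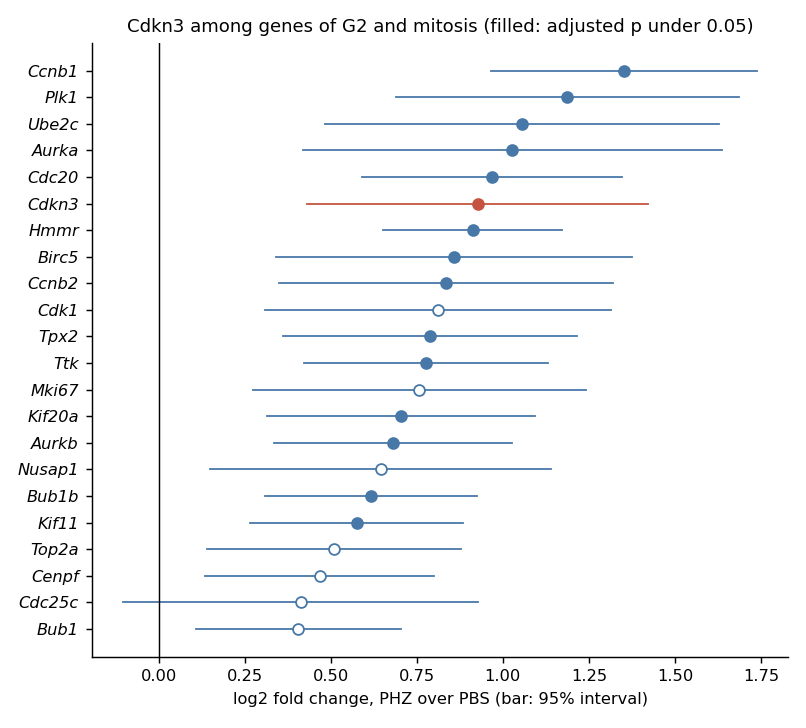
Log2 fold change (PHZ over PBS, x axis) with its 95% interval for Cdkn3 (red) and 21 genes of G2 and mitosis (blue), filled where the adjusted p was under 0.05. All 22 estimates are above 0, and Cdkn3 stands below 5 of the other genes.

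Relative to those genes the level of Cdkn3 differed little. In FPKM, a level per transcript length, Cdkn3 was 6.47% ± 0.371 of the summed G2 and mitosis genes in PBS rats and 6.72% ± 0.598 in PHZ rats (SD, n = 3). Its ratio to Cdk1, the mitotic kinase gene, was 1.12 ± 0.0649 and 1.20 ± 0.116. Its ratio to Cdk2, whose product Cdkn3 dephosphorylates, was 3.31 ± 0.226 in PBS rats and 4.36 ± 0.611 in PHZ rats, and here the groups did not overlap (3.08 to 3.53 against 3.79 to 5.002). These ratios are descriptions with no test.

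Levels of the members relative to each other were read in FPKM. In PBS rats Cdkn2d (74.7 ± 13.6 FPKM; SD, n = 3), Cdkn3 (71.5 ± 2.77) and Cdkn1b (63.0 ± 6.23) were highest, and these overlapped between libraries. Cdkn2c followed at 30.4 ± 4.72 FPKM, then Cdkn1a at 4.64 ± 0.818, and these were apart from their neighbours in every library. Cdkn2b at 2.20 ± 0.946 and Cdkn1c at 0.97 ± 0.738 FPKM overlapped.

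In PHZ rats Cdkn3 stood alone at the top with 129 ± 23.3 FPKM. Cdkn1b at 76.7 ± 10.7 and Cdkn2d at 76.4 ± 9.65 FPKM could not be ranked, and Cdkn2c at 48.4 ± 13.0 FPKM lay below both. Cdkn1a at 5.05 ± 2.33, Cdkn2b at 1.19 ± 0.352 and Cdkn1c at 0.277 ± 0.0153 FPKM followed without overlap. The means of the 4 lowest members had the same order in both groups, although in PBS replicate 1 Cdkn1c (1.82 FPKM) exceeded Cdkn2b (1.18 FPKM).

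Cdkn1b, Cdkn2c and Cdkn2d made up nearly all inhibitor transcript. Leaving out the phosphatase gene Cdkn3, the 6 inhibitor genes summed to 202, 171 and 155 FPKM in PBS rats and to 173, 233 and 218 FPKM in PHZ rats, and those 3 genes held 94.8% to 98.0% of the sum. The groups overlapped, with means of 176 ± 24.2 and 208 ± 30.9 FPKM (SD, n = 3). The difference of 32.3 FPKM was 20.0 without PHZ replicate 2 and 49.7 without PHZ replicate 1. The INK4 genes took 60.9% ± 1.97 of the sum in PBS rats and 60.4% ± 2.14 in PHZ rats.

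Within that INK4 share, the ratio of Cdkn2c to Cdkn2d did not overlap between the groups. Cdkn2c took 16.2% to 18.7% of the inhibitor sum in PBS rats and 19.6% to 25.6% in PHZ rats. Cdkn2d took 40.9% to 44.4% in PBS rats and 35.8% to 38.1% in PHZ rats. The ratio of Cdkn2c to Cdkn2d was 0.379, 0.450 and 0.396 in the PBS libraries and 0.516, 0.700 and 0.661 in the PHZ libraries. None of these measures overlapped between groups, PHZ replicate 1 included, but they share the same values and are not separate results. Levels of single genes did not overlap for 41.7% of all tested genes. The ratio of Cdkn2c to Cdkn1b did overlap, at 0.429 to 0.530 in PBS libraries and 0.529 to 0.712 in PHZ libraries. A ratio within a library does not depend on how libraries are scaled. These measures were chosen for description after their values were seen and carry no test.

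**Figure D4:**
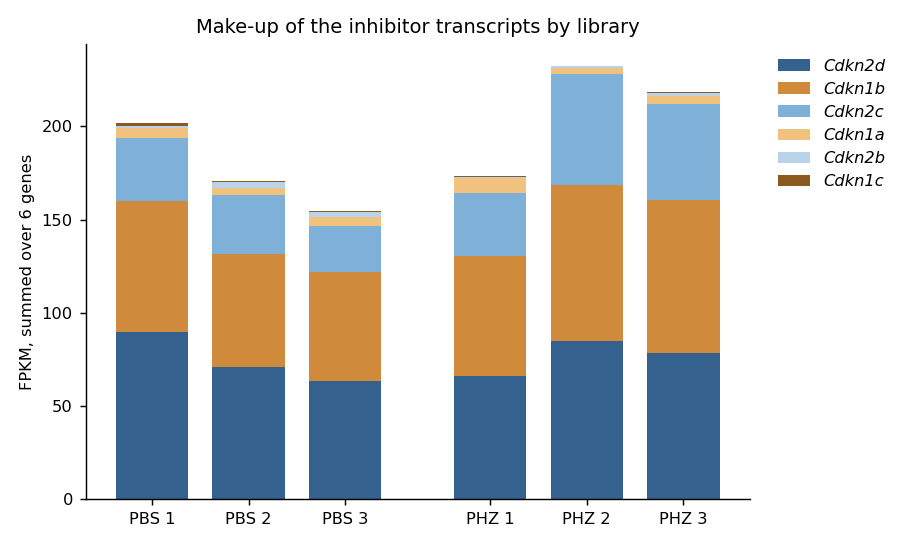
FPKM of 6 inhibitor genes (Cdkn3 left out) stacked by library, 3 PBS and 3 PHZ. Cdkn2d, Cdkn1b and Cdkn2c fill 94.8% to 98.0% of every bar, and the Cdkn2c band is 16.2% to 18.7% of the bar in PBS and 19.6% to 25.6% in PHZ libraries.

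The kinases and cyclins of G1 and S phase that the inhibitors bind moved as follows. Of 9 genes 3 rose and none fell (DESeq2 called 4 higher and 1 lower), with a median log2 fold change of 0.57. The share that rose among all tested genes was 8.99%, and DESeq2 called 1910 of those 13547 genes higher and 1559 lower. The cyclin genes Ccne1, Ccna2 and Ccne2, whose products activate CDK2, rose by 1.64 ± 0.17, 1.08 ± 0.15 and 0.92 ± 0.19 on the log2 scale (edgeR adjusted p = 0.0154, 0.0187 and 0.0306). The kinase genes did not pass: Cdk2 had a log2 fold change of 0.48 (edgeR adjusted p = 0.0882), Cdk4 of 0.57 (0.0528) and Cdk6 of -0.21 (0.302). With PHZ replicate 1 left out 5 of the 9 passed, and with PBS replicate 2 or 3 left out none of these or of the genes listed hereafter did.

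The D-type cyclin genes, whose products activate CDK4 and CDK6, did not pass either. Their log2 fold changes were -1.32 for Ccnd1 (edgeR adjusted p = 0.0976), 0.87 for Ccnd2 (0.141) and 0.38 for Ccnd3 (0.367). Ccnd1 was highest in PBS replicate 1, at 16.2 CPM against 3.0 to 6.55 CPM in the other libraries, the library with the highest stromal markers.

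Summed FPKM of Cdk2, Cdk4 and Cdk6 was 121 ± 8.51 in PBS rats and 162 ± 5.97 in PHZ rats (SD, n = 3). The 6 inhibitor genes stood to these kinases in ratios of 1.73, 1.31 and 1.35 in PBS libraries and of 1.10, 1.38 and 1.36 in PHZ libraries. The ratios overlapped, so transcript of inhibitors per transcript of kinase was not shown to differ. Cdkn1b per Cdk2 was 2.93 ± 0.532 and 2.60 ± 0.220, and Cdkn2c per Cdk4 and Cdk6 was 0.306 ± 0.0425 and 0.363 ± 0.0890.

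The pocket protein genes encode the targets that CDK4, CDK6 and CDK2 phosphorylate. Rb1 rose by 0.68 ± 0.15 and Rbl1 by 0.69 ± 0.13 on the log2 scale (edgeR adjusted p = 0.0349 and 0.0241), while Rbl2, whose product is known for quiescent cells, had a log2 fold change of -0.46 and did not pass (edgeR adjusted p = 0.0798). Among all tested genes 8.99% rose. Of 19 tested genes of the G1/S transition and replication, which these proteins repress through E2F factors, 17 rose and none fell, with a median of 1.08. Examples are the chromatin factor gene Uhrf1 (1.12 ± 0.12) and the helicase subunit genes Mcm6 (1.37 ± 0.15) and Mcm2 (1.10 ± 0.13), each with an edgeR adjusted p of 0.0154. With PHZ replicate 2 or 3 left out no pocket protein gene passed, and 10 of the 19 G1/S genes did.

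CIP/KIP proteins are known to be controlled largely by degradation, which RNA does not show. Of 11 tested genes of that machinery 3 rose and none fell (DESeq2 called 7 higher), with a median log2 fold change of 0.65. The share that rose among all tested genes was 8.99%. Cops5, whose product carries p27 out of the nucleus, rose by 0.89 ± 0.13, Ddb1, an adaptor of the CUL4 ligase, by 0.73 ± 0.13, and Pcna, the sliding clamp on which p21 is degraded, by 0.65 ± 0.15 (edgeR adjusted p = 0.0190, 0.0238 and 0.0409). The p27 ligase subunit gene Skp2 and its cofactor gene Cks1b had log2 fold changes of 0.67 and 0.66 and did not pass (edgeR adjusted p = 0.159 and 0.0522). The number of turnover genes that passed was 6, 0 and 1 with PHZ replicates 1, 2 and 3 left out.

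**Figure D5:**
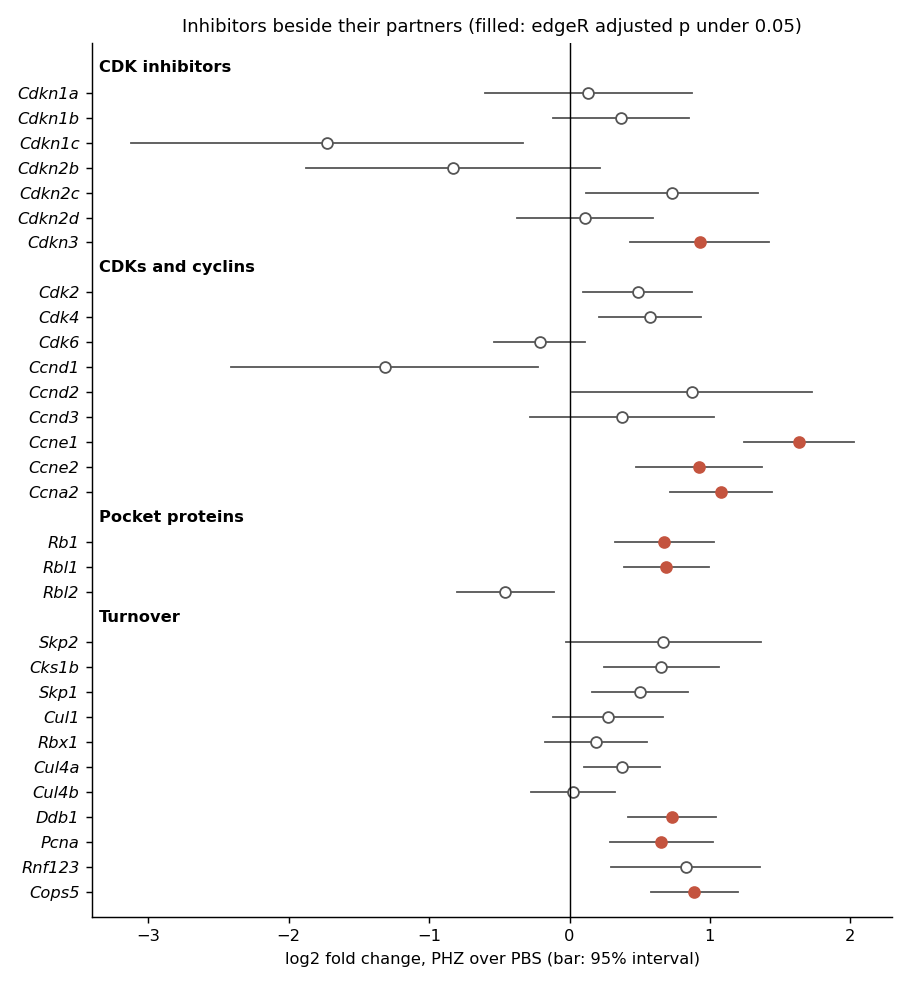
Log2 fold change (PHZ over PBS, x axis) with its 95% interval for the 7 members, 9 CDKs and cyclins, 3 pocket protein genes and 11 turnover genes, filled where the adjusted p was under 0.05. Cdkn3 is the only filled member, and 3, 2 and 3 genes of the other groups are filled, all to the right of 0.

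Of 20 transcriptional regulators of inhibitor genes 4 rose and 1 fell (DESeq2 called 5 higher and 4 lower). Among all tested genes 8.99% rose and 4.17% fell. The erythroid factor genes Klf1, Gata1 and Gfi1b rose by 1.48 ± 0.24, 1.23 ± 0.23 and 1.16 ± 0.24 on the log2 scale (edgeR adjusted p = 0.0218, 0.0247 and 0.0324). Foxo1, a known activator of Cdkn1b, stood at 27.1, 26.8 and 33.5 CPM in PBS rats and at 14.2, 5.18 and 8.74 CPM in PHZ rats, a log2 fold change of -1.63 ± 0.36 (edgeR adjusted p = 0.0359). The other FOXO genes listed had higher estimates and did not pass. Foxo3 had a log2 fold change of 0.45 ± 0.13 (edgeR adjusted p = 0.0649), with every PHZ library above every PBS library. That of Foxo4 was 0.24 ± 0.23 (edgeR adjusted p = 0.498). With PHZ replicates 2 and 3 left out, 2 and 0 of these regulators passed.

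Lymphoid markers were lower in the same PHZ libraries: 7 of 9 tested B lineage genes fell, Blnk, Cd79b and Pax5 among them, and 7 of 9 T and NK lineage genes, Cd8a, Cd5 and Cd3e among them. The share that fell among all tested genes was 4.17%. The summed B lineage level, per library total, was 584 to 727 CPM in PBS rats and 125 to 232 CPM in PHZ rats, and no marker of either list was at 0 in every library. The summed T and NK level overlapped between groups, at 76.5 to 194 CPM in PBS rats, lowest in replicate 1, and 70.2 to 86.2 CPM in PHZ rats. Without PHZ replicates 2 and 3, 4 and 3 B lineage genes and 0 and 1 T and NK lineage genes passed. Markers of monocytes and macrophages, of megakaryocytes and of mast cells, basophils and eosinophils held no gene that passed in edgeR. At an unadjusted p under 0.05 they held 1, 1 and 3 genes that were lower, the numbers that DESeq2 called, and limma called 0, 0 and 1. Of 5 tested markers of c-kit progenitors, the list that holds Kit, none passed in edgeR. The estimate was higher in PHZ rats for 1 of them, and the median log2 fold change was -0.56. In edgeR 3 were lower at an unadjusted p under 0.05, and DESeq2 called 3 lower and limma 0. Their part in the values of the 7 inhibitor genes was not tested.

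The genes whose levels ran most like each member were sought among 7843 candidates by Pearson correlation of log2 CPM over the 6 libraries, which share the same 2 groups and depths. For Cdkn3 they were the tubulin gene Tuba1b (r = 0.997), the mRNA processing gene Cpsf4 (0.997) and Pcna (0.996). For Cdkn2c they were Erich1 (0.998), Epor (0.997) and the homeobox gene Pbx3 (0.997). For Cdkn1b they were Tbcc (0.997), Dirc2 (0.996) and Etfbkmt (0.996), and for Cdkn2d the Polycomb gene Cbx7 (0.980), Zfand6 (0.976) and Ino80b (0.973).

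For the members of low level, the closest genes were Marcks (0.995), Apol3 (0.988) and Pmp22 (0.987) for Cdkn1c. They were Prodh1 (0.996), Pnisr (0.995) and Map2k7 (0.994) for Cdkn2b. For Cdkn1a, the member that was highest in PHZ replicate 1, the closest gene was Rnf20 (0.990). With 6 points and 7843 candidates such values are high for every member, and they describe likeness in these libraries only.

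In the authors' deposited table none of the 7 members was marked as up or down, among 546 genes marked up and 1183 marked down. The smallest absolute log2 ratio of a marked gene in the authors' deposited table was 1.00. The log2 ratios of PHZ over PBS in the authors' deposited table were 0.12 for Cdkn1a, 0.29 for Cdkn1b, -1.81 for Cdkn1c, -0.88 for Cdkn2b, 0.67 for Cdkn2c, 0.03 for Cdkn2d and 0.85 for Cdkn3. Cdkn3 had the highest Probability score of the members in the authors' deposited table, 0.995, and Cdkn1c was given none.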

How the data were processed

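Poly(A) RNA of c-kit+ marrow cells was sequenced from 6 rats, 1 library each. HISAT, GATK, RSEM and the build rn6 are listed in the submitters' processing notes. Their roles, versions and settings were not given in the sources consulted. An expected count and an FPKM per gene and library were deposited by the authors, per the file headers, with a table of group means, a log2 ratio and a score named Probability. Genes not listed in a library were set to 0.

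Expected counts (72.8% to 74.1% whole) were rounded and tested with edgeR 4.0.16 in R 4.3.3 (TMM, filterByExpr, robust glmQLFit, glmQLFTest, treatment as the only term). Standard errors were derived from the F statistic as |log2 fold change|/sqrt(F), and 95% intervals from the t distribution. With 4 residual degrees of freedom and a biological coefficient of variation of 35.2%, the number of rats limits precision. Replicates differed far beyond sampling noise (chi-square per degree of freedom 48.3 to 177), so none were merged. A count of 0 was taken to allow up to 3 counts. FPKM was used to compare genes. Alternatives were DESeq2 1.42.0, limma 3.58.1 on log2(FPKM + 1) and log2(FPKM + 0.1), other scalings, no filter, sex and block terms, and libraries left out. A term for Y-linked transcripts was added after seeing the data. The script was tested on simulated data.

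The members and gene lists were chosen with earlier results of these data known. Named genes are the members, the 3 called genes of smallest p in each list, Cdk2, Cdk4, Cdk6, Ccnd1, Ccnd2, Ccnd3, Ccne1, Skp2, Cks1b, Kit, and for each member the 3 genes of highest correlation (mean log2 CPM 3 or more). Gfi1b, Foxo1, Foxo3, Foxo4, Rbl2, Epor, Cxcl12, Cdk1 and Cdkn2a were named after their values were seen. Some results that this rule takes are not reported here. Promoter sequences are RefSeq's.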

Additional observations from a re-analysis of the deposited data

How the results depend on the processing

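Of 17 alternatives, Cdkn1b, Cdkn1c, Cdkn2b, Cdkn2c and Cdkn3 kept their direction in all and Cdkn1a and Cdkn2d in 15. Cdkn1a, 0.13 as reported, was between -0.20 (without PHZ replicate 1) and 0.31 with 1 library left out, negative also without PBS replicate 2 (-0.02). Cdkn2d, 0.11 as reported, was between -0.0568 and 0.27, negative without PHZ replicate 2 (-0.0568) and with the Y-linked term (-0.0463). Cdkn1b (0.21 to 0.56) and Cdkn2c (0.49 to 0.97) passed the test without PHZ replicate 1 only. Cdkn3 passed in 9 of 17. It was 0.67 to 1.06 with 1 library left out, 0.97 without the 3 libraries against their sex label (adjusted p = 0.487) and 0.86 with the Y-linked term (adjusted p = 0.0891). Cdkn1c did not pass in any (adjusted p = 0.0682 to 0.637).

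Called genes numbered 1783 as reported, 3469 with DESeq2, 1015 with library totals, 928 with labelled sex as a term, 435 with the Y-linked term, 0 without the 3 libraries (1504 at unadjusted p under 0.05) and 0 to 1744 with 1 library left out. The 0 came without PBS replicate 2 or 3 (3325 and 3291 at unadjusted p under 0.05), and 266 and 572 were called without PHZ replicates 2 and 3. The cause was not tested. Same-numbered libraries correlated at 0.21, 0.06 and 0.00 in their deviations from group means, so the numbers were not taken to pair rats. With a replicate block no gene was called by edgeR (4641 at unadjusted p under 0.05), Cdkn3 was 0.89 (adjusted p = 0.0645), and not every library correlated best with its own number. The difference in summed inhibitor FPKM was 32.3 for 6 genes (20.0 to 49.7 with 1 library left out, lowest without PHZ replicate 2 and highest without PHZ replicate 1) and 89.4 with Cdkn3. Low counts limit Cdkn1c, with 7 to 10 per PHZ library.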
